A study of Mus musculus with 13 samples.

Results

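The 10 genes described here are Ier2, Ier3, Ier5, Btg1, Btg2, Zfp36, Zfp36l1, Zfp36l2, Plk2 and Plk3. They belong to 4 families, each with some members known for rapid and short-lived transcription after stimulation. They were taken by name: every probe set that the platform table annotates to 1 of these symbols alone was kept, which gave 17 of the 20393 probe sets with a single gene and of the 22690 on the array. The cells were primary keratinocytes of the mouse, the cells that build the epidermis. All of them, the untreated culture included, carried a retrovirus that expresses DNp63alpha, a p63 isoform, fused to an estrogen receptor domain. Tamoxifen switches such a fusion protein on. There was 1 array of untreated cells and 1 array at each of 12 times, every 20 min from 20 to 240 min after tamoxifen. Animal age and strain and the virus promoter are not given in the sources used here, and cells without the fusion or without tamoxifen over the same hours were not analysed here.

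Immediate early genes are transcribed from factors already present in the cell, and their messages are short-lived. IER2, IER3 and IER5 are small regulators of transcription, survival signalling and stress responses. BTG1 and BTG2 restrain proliferation and recruit the CCR4-NOT deadenylase, which shortens poly(A) tails. ZFP36 (tristetraprolin), ZFP36L1 and ZFP36L2 bind AU-rich elements in the messages of cytokines and growth regulators and bring the same deadenylase to them, so that these messages decay. PLK2 and PLK3 are polo-like kinases of the stress response and of cell cycle checkpoints. In the epidermis p63 keeps basal cells proliferating, and Btg2 and Plk2 are also known as targets of p53, the relative of p63.

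Values are deposited intensities, 1 per probe set and array, and changes are given on the log2(intensity + 16) scale, which understates the change of dim probe sets. Array medians lay between 237.4 and 251.5, which shows that the arrays were already on a common level when deposited. Spearman correlations between arrays, which compare ranks only, lay between 0.983 and 0.997. With 1 array per time there is no replicate. Change was judged as a straight line over the 13 arrays, as a spline of time, and between neighbouring hours of 3 arrays each (20 to 60, 80 to 120, 140 to 180 and 200 to 240 min), where neighbouring times stand in for replicates. Every change given over 4 h is that of the fitted line. For a course with a step it can differ from the change between early and late arrays. Whether the 13 RNA samples are of separate cultures is not stated, and the p-values cover the spread from array to array alone. For the contrast with the single untreated array, that array was taken to vary as much as the rest. Adjusted p-values are from limma with Benjamini-Hochberg adjustment over 12236 probe sets, at a threshold of 0.05. Fewer cells of a type and less RNA per cell cannot be told apart in such bulk RNA, and change due to tamoxifen itself or to the elapsed hours cannot be told apart from change due to the fusion protein.

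The promoters of these genes are known for the sites of stimulus-activated factors. Promoter windows of 300 bases, 250 before and 50 after the annotated start, were found in RefSeq (GRCm38.p6) for 8 of the 10 genes, all but Ier2 and Zfp36l2. They were searched on both strands for 10 motifs. The windows below were chosen for matches that are least common among the 32817 promoters of the table or belong to the p53 family. In the Btg2 window a CCAAT box, the most common of the 10 motifs, is marked as well. Sequences run 5′ to 3′ on the strand of the gene, with the matches in capitals. In Zfp36 (chr7:28379273-28379343, minus strand) the capitals mark, in order, an EGR site (GCGGGGGCG), an ETS site (CCGGAAG) and a CArG box, the sequence bound by serum response factor.
Zfp36: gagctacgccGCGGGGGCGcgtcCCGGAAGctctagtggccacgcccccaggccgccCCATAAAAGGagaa
In Btg2 (chr1:134079300-134079340, minus strand) the capitals mark a CCAAT box and a cAMP response element (TGACGTCA), which also stands in Plk2 (chr13:110394964-110395004, plus strand).
Btg2: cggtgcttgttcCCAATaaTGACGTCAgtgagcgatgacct
Plk2: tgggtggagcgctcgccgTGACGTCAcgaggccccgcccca
In Ier3 (chr17:35821603-35821643, plus strand) the capitals mark an NF-kB site, read on the opposite strand, and in Ier5 (chr1:155099776-155099816, minus strand) a half-site of the p53 family.
Ier3: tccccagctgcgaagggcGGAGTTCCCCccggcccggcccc
Ier5: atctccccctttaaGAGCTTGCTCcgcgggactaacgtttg

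Among all promoters of the table the CArG box was found in 1.63%, the EGR site in 2.91% and the ETS site in 8.86%, and among the 8 windows each was found in Zfp36 alone. The full cAMP response element was found in 1.79% of all promoters and in 2 of the 8 windows. Its half-site TGACG, which lies within the full element, was found in 20.79% of promoters and in 4 windows, those of Btg1, Btg2, Plk2 and Plk3. The NF-kB site (8.46% of promoters) and the p53 family half-site (8.36%) were each found in 1 window. CCAAT was found in 37.39% of promoters and in 5 windows, TATAAA in 13.62% and in 2 windows, Btg1 and Zfp36l1, and the AP-1 site TGACTCA in 5.2% and in 0 windows. A match is a description of the letters, and its absence says only that those letters are not in the window.

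**Figure D1:**
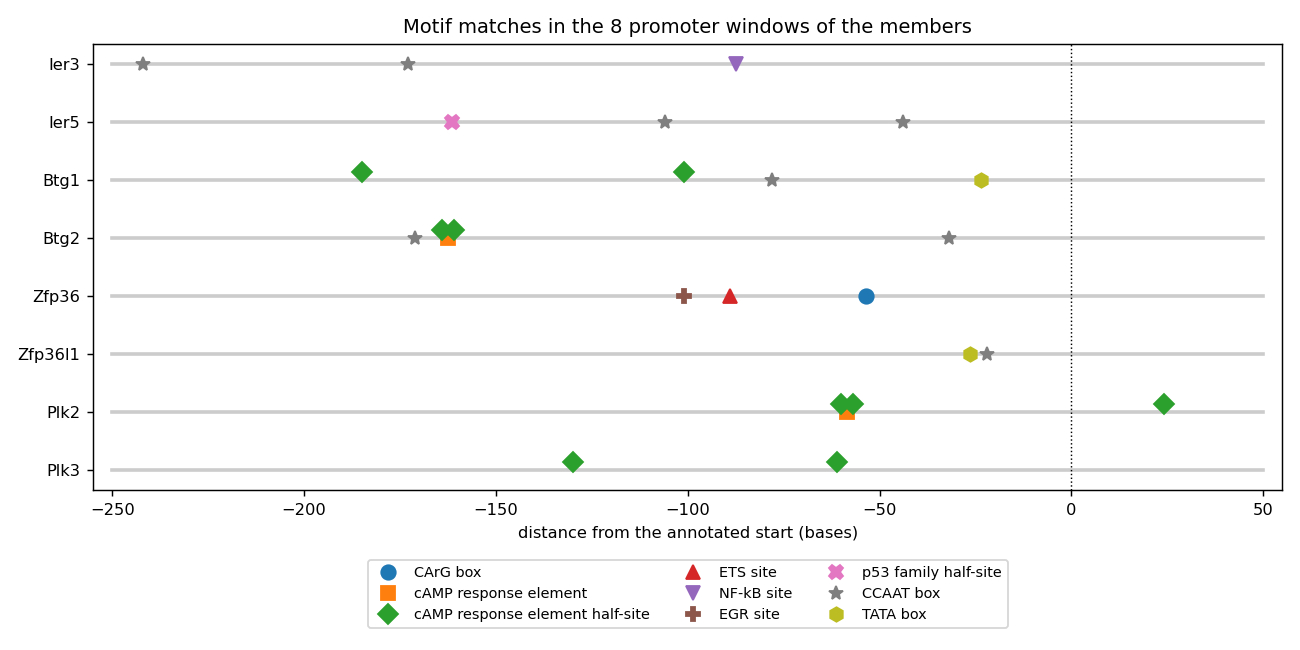
Motif matches in the promoter windows of 8 genes. The horizontal axis is the distance in bases from the annotated start (dotted line), each row is a gene and each symbol is the centre of a match. The CArG, EGR and ETS matches lie together upstream of Zfp36, and Btg2 and Plk2 hold the full cAMP response element.

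Most of these transcripts fell within the course. On a straight line, 11 of the 16 tested probe sets fell, belonging to 9 genes, where 16.2% of all tested probe sets were called lower. In the same test 1 probe set rose, of Btg2, where 20.3% of all were called higher. The spline called the same 12 probe sets, which cover all 10 genes, against 21.4% of all. The median change per hour was -0.097 for the 16 probe sets and 0.004 for all. The remaining probe set, Ier5 1460009_at, was too dim to be tested and read between 164.0 and 192.2 in all arrays; fitted without the filter its change per hour was -0.024 (limma adjusted p = 0.262).

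Between neighbouring hours, calls were made for the first against the second hour alone. In the second hour 10 probe sets of 8 genes were lower than in the first, where 12.9% of all were called lower, and 0 were higher, where 11.8% of all were called higher; the unadjusted p was under 0.05 for 11 of the 16. The median difference was -0.263 for the 16 probe sets and 0.003 for all. Between the untreated array and the first hour limma called 0 of the 16 probe sets, against 0.00817% of all (1 probe set), and 0 had an unadjusted p under 0.05. Differences there ran from -0.16 to 0.17, every one with an adjusted p of 0.999. Between the second and the third hour limma called 0 of the 16, and 0% of all, with 6 under an unadjusted p of 0.05 (11.8% of all). Between the third and the fourth hour it called 0 of the 16, and 0% of all, with 3 under an unadjusted p of 0.05 (15.1% of all). With arrays weighted by their quality that last contrast called 1662 probe sets, 2 of the 16 among them, and without the 240 min array 968.

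**Figure D2:**
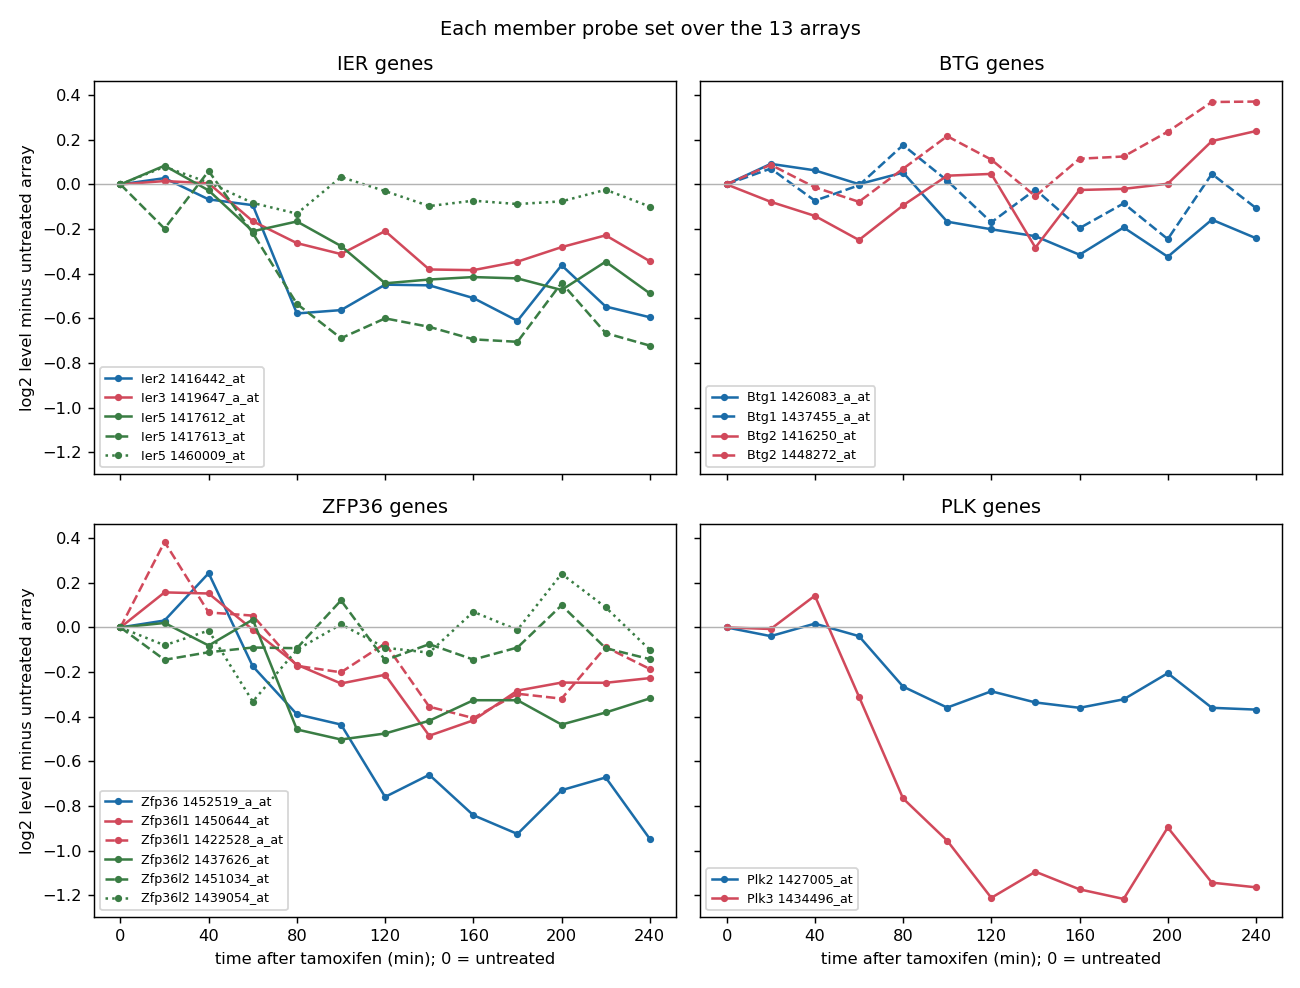
Log2 level of each probe set minus its level in the untreated array (vertical axis) against time after tamoxifen in min (horizontal axis), 1 panel per family and 1 line per probe set. Most lines of the IER, ZFP36 and PLK panels drop between 60 and 80 min and stay low, and the Btg2 lines end above 0.

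Ier2, a nuclear regulator of transcription, gave a step. Its probe set 1416442_at read 2156 in untreated cells, 2199 at 20 min, 2058 at 40 min and 2021 at 60 min. At 80 min it read 1439, and the 9 arrays from 80 min lay between 1407 and 1674 with a median of 1471. The 4 arrays up to 60 min were all above these 9, and the groups did not overlap. The mean log2 level was 11.04 ± 0.064 (SD, n = 3) in the first hour and 10.55 ± 0.071 (n = 3) in the second, a fall of 1.4-fold (log2 difference -0.49 ± 0.068 SE, limma adjusted p = 0.000496). With hours of 4 arrays, the 80 min array counted with the earlier ones, the difference was -0.32 and the adjusted p 0.081.

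Ier3, which acts in survival signalling, fell as well, and its 60 min array already lay below the 3 before it. 1419647_a_at read 5811, 5873 and 5834 in the arrays from untreated to 40 min, 5183 at 60 min and 4842 at 80 min. From 80 min it lay between 4450.0 and 5028, below every earlier array. The second hour was 1.16-fold below the first (-0.21 ± 0.049, limma adjusted p = 0.00836), and the line gave a 1.27-fold fall over 4 h (-0.35 ± 0.078, limma adjusted p = 0.00321).

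Ier5, a stress-induced regulator, was read by 3 probe sets. 1417612_at read 3063 in untreated cells, 3247 at 20 min, 3005 at 40 min and 2645 at 60 min, then 2728 at 80 min, and ended at 2179. Its 60 min array lay below the 80 min array, so the groups overlapped, and its fall was spread over the first 2 h. Over 4 h it fell 1.45-fold (-0.54 ± 0.08, limma adjusted p = 0.000304). Its difference between the first 2 hours (-0.24 ± 0.079, limma adjusted p = 0.0397) did not hold in several fits: the adjusted p was 0.146 without the 20 min array, 0.107 without 40 min, 0.0862 without 100 min and 0.146 without 120 min, and just above the threshold without 140 (0.0552), 160 (0.0548) or 180 min (0.0559).
The other tested probe set, 1417613_at, read 971 in untreated cells and between 832.7 and 1013 at 20 to 60 min, and from 80 min between 582 and 711. These groups did not overlap. It fell 1.4-fold between the first and the second hour (-0.49 ± 0.086, limma adjusted p = 0.00187) and 1.61-fold over 4 h (-0.69 ± 0.142, limma adjusted p = 0.00193). Across the 13 arrays the tested pair correlated at r = 0.82, a description over arrays that share the step.

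Of the BTG genes, which restrain proliferation, Btg1 was lower from 100 min in its brighter probe set, and Btg2 was higher at the end. Btg1 1426083_a_at read 4840.1, 5161, 5059, 4844 and 5022 in the 5 arrays from untreated to 80 min, and from 100 min between 3865 and 4337. The 8 arrays from 100 min were all below the 5 earlier ones. This split was chosen after the course was seen, and its share among all probe sets was not computed. It fell 1.29-fold over 4 h (-0.37 ± 0.072, limma adjusted p = 0.00138), while its difference between the first and the second hour, -0.16 ± 0.064, had an adjusted p of 0.0942. Without the 80 min array that difference was -0.24 and passed (limma adjusted p = 0.0112). Its other probe set, 1437455_a_at, ranged from 2656 to 3562 with its highest value at 80 min and did not pass on the line (-0.16 ± 0.088, limma adjusted p = 0.164). The pair correlated at r = 0.73 over the 13 arrays.

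Btg2, an antiproliferative gene also known as a p53 target, was the single gene with a rise. Its probe set 1448272_at read 703 in untreated cells, 749 at 20 min, 697 at 40 min and 665.5 at 60 min. Later values were 678 (140 min), 832 (200 min), 914 (220 min) and 915 (240 min). The last 3 arrays were the highest of the 13, and the arrays before and after 80 min overlapped. The line gave a 1.26-fold rise over 4 h (0.33 ± 0.088, limma adjusted p = 0.00855). Per hour this is 0.083. The line passed with any single array left out, and without both 200 and 220 min it was 0.069 per hour with an adjusted p of 0.0537. The spline's call was lost without 220 min (adjusted p = 0.104) or without 240 min (0.0712).
The second Btg2 probe set, 1416250_at, followed the first at r = 0.91 over the 13 arrays. It read 972 in untreated cells, had its lowest values at 140 (796) and 60 min (815), and its highest at 220 (1114) and 240 min (1149). Its change over 4 h was 0.26 ± 0.107 (limma adjusted p = 0.0731). It passed without the untreated array (0.0414) or without 140 min (0.026).

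Zfp36, the decay factor tristetraprolin, was among the 2 genes of the set whose fitted line fell more than 2-fold over 4 h. In the 4 arrays up to 60 min, 1452519_a_at gave intensities of 1518, 1551, 1799.9 and 1343. The next arrays gave 1156 (80 min), 1119 (100 min) and 890.3 (120 min), and the 9 arrays from 80 min had a median of 910 and a lowest value of 779.7 at 240 min. All 4 arrays up to 60 min were above these 9. The line gave a 2.12-fold fall over 4 h (-1.09 ± 0.148, limma adjusted p = 2e-04). From the mean of 0 to 40 min to that of 160 to 240 min the log2 level fell by 0.91. The second hour was 1.48-fold below the first (10.06 ± 0.202 against 10.62 ± 0.209, SD, n = 3 each; -0.56 ± 0.122 SE, limma adjusted p = 0.00622). A further difference of -0.28 between the second and the third hour had an adjusted p of 0.404.

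Zfp36l1, its paralogue, fell in both probe sets. 1450644_at read 2934 in untreated cells, 3275 at 20 min, 3263 at 40 min and 2915 at 60 min, and from 80 min between 2092 and 2613. The groups did not overlap. It fell 1.24-fold between the first and the second hour (-0.31 ± 0.058, limma adjusted p = 0.00261). The dimmer probe set, 1422528_a_at, gave 538, 707, 565 and 559 in the 4 arrays up to 60 min, and from 80 min at most 511. Its difference between those hours, -0.32 ± 0.087 (limma adjusted p = 0.0198), did not pass without 20 (0.0603), 80 (0.0572) or 100 min (0.0728) or with hours of 4 arrays (0.0617), and its line (-0.44 ± 0.134, adjusted p = 0.0185) did not pass without 20 min (0.0667). The pair correlated at r = 0.9 over the 13 arrays.

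Zfp36l2, the third member of the family, gave a step in 1 of its 3 probe sets. 1437626_at read 2363 in untreated cells, 2396 at 20 min, 2232 at 40 min and 2421 at 60 min, and 1717 at 80 min. From 80 min it stayed between 1663 and 1892, below every earlier array. The mean log2 level was 11.21 ± 0.063 (SD, n = 3) in the first hour and 10.74 ± 0.023 (n = 3) in the second, a 1.38-fold fall (-0.47 ± 0.048 SE, limma adjusted p = 0.000103). With hours of 4 arrays the difference was -0.31 and did not pass (adjusted p = 0.0515).
Its straight line held in fewer fits: the 4 h change of -0.40 ± 0.127 (limma adjusted p = 0.023) did not pass without the untreated (0.0859), the 20 (0.0749) or the 40 min array (0.0509). The other probe sets did not follow. 1451034_at stayed between 445 and 539 (adjusted p of the line 0.98) and 1439054_at between 328 and 496 (4 h change 0.16 ± 0.106, limma adjusted p = 0.252). They correlated with 1437626_at at r = -0.26 and -0.4 over the 13 arrays. Where on the transcript each probe set lies was not known here, and the disagreement was not resolved.

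Plk2, a polo-like kinase of the stress response, gave a small step. Its probe set 1427005_at read 5868, 5712, 5938 and 5713 in the 4 arrays up to 60 min. It read 4881 at 80 min, and the 9 arrays from there lay between 4545 and 5089, below all 4 earlier ones. The second hour was 1.22-fold below the first (12.22 ± 0.049 against 12.5 ± 0.032, SD, n = 3 each; -0.28 ± 0.044 SE, limma adjusted p = 0.000884).

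Plk3, its relative in checkpoint signalling, had the greatest fall of the 16 tested probe sets. Its probe set 1434496_at read 1511 in untreated cells, 1504 at 20 min, 1669.7 at 40 min and 1216 at 60 min. The next arrays gave 883 (80 min), 772 (100 min) and 644 (120 min), and the 9 arrays from 80 min had a median of 676. The highest of these, 883, was below the lowest of the 4 earlier arrays. The second hour was 1.89-fold below the first (9.6 ± 0.224 against 10.52 ± 0.23, SD, n = 3 each; -0.92 ± 0.125 SE, limma adjusted p = 0.000428), and the line gave a 2.55-fold fall over 4 h (-1.35 ± 0.222, limma adjusted p = 0.000504).

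**Figure D3:**
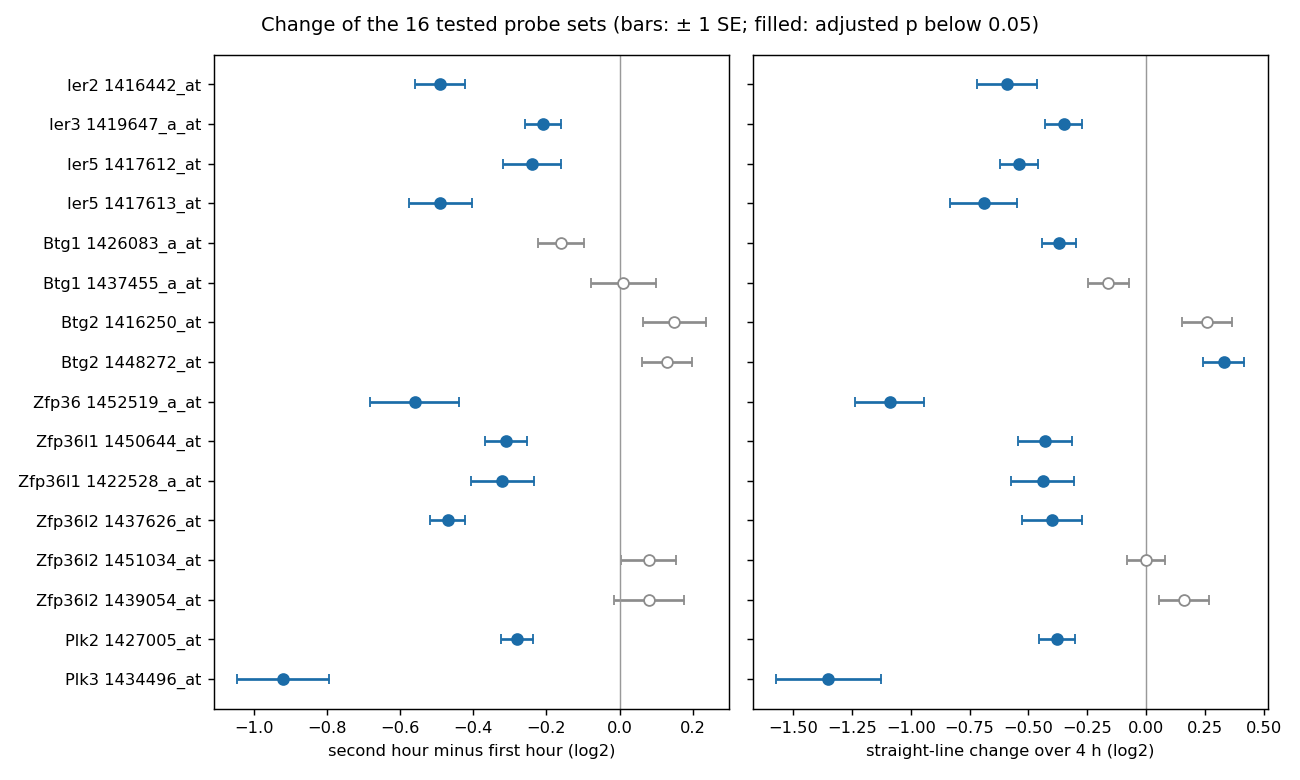
Log2 changes of the 16 tested probe sets, 1 per row, for the second hour minus the first (left panel) and over the 4 h of the line (right panel). Points are estimates, bars are 1 SE to each side, and filled points had an adjusted p below 0.05. Plk3 and Zfp36 lie farthest to the left, 10 points are filled for the second hour against the first, and 1 filled point, of Btg2, lies right of 0 on the line.

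The gap between 60 and 80 min was common to these genes. In 9 of the 16 probe sets every array up to 60 min was above every array from 80 min, a pattern of 10.2% of all tested probe sets. The reverse pattern was found in 0 of the 16 and in 10.6% of all. The greatest fall between neighbouring arrays came at 60 to 80 min in 5 of the 16, against 20.4% of all, with drops of 0.49 for Ier2 and Zfp36l2, 0.46 for Plk3, 0.32 for Ier5 1417613_at and 0.23 for Plk2. Since both signs of the step are common on the array, the 60 to 80 min interval is not particular to these genes, and a difference in handling between the 60 and 80 min cultures cannot be told apart from time.

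How far each fall had gone at a given array varied among the probe sets. Progress was expressed as the percent of the way from the mean of 0 to 40 min to the mean of 160 to 240 min on the log2 scale. At 60 min Ier3 was at 53% and Ier5 1417612_at at 51%, Plk3 at 31% and Zfp36 at 29%, while Plk2 was at 10% and Zfp36l2 at -16%. At 80 min Ier2 was at 110% and Zfp36l2 at 130%, below their later mean, and Zfp36 was at 53%. Btg1 was at 0% at 80 min and at 73% at 100 min. Of the 11 falling probe sets 8 first lay below the midpoint at 80 min, 2 at 60 min and 1 at 100 min. Of the 1980 probe sets called lower on the array, 50.6% did so at 80 min, 25.4% at 60 min and 10.1% at 100 min. Each progress value rests on 1 array, and no test was made of these times.

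**Figure D4:**
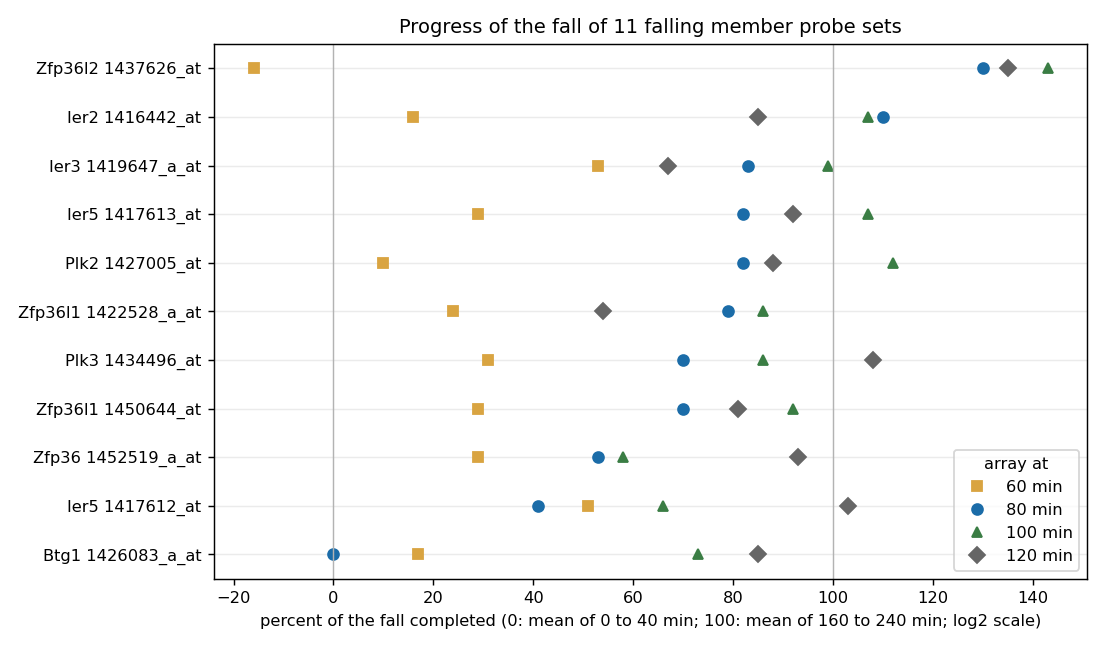
Percent of the fall completed (horizontal axis; 0 is the mean of the 0 to 40 min arrays and 100 the mean of 160 to 240 min, log2 scale) for the 11 falling probe sets, 1 per row, with 1 symbol per array at 60 to 120 min. Ier3 is past 50% at 60 min, Ier2 and Zfp36l2 are past 100% at 80 min, and Btg1 is at 0% at 80 min.

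Within families the size of the shift differed between the probe sets of some pairs. The mean of the 9 arrays from 80 min minus that of the 4 up to 60 min was taken for the brightest probe set of each gene, and 8 pairs were compared by an exact two-sided permutation test over arrays, whose smallest possible p is 0.0014. The arrays are ordered in time and share the step, and the split was chosen after the data were seen. Ordered arrays are not interchangeable as the test takes them to be, and slow drift between genes also lowers p. These p-values therefore describe the split only, and passing is used below as a label. Plk3 shifted by -1.02 and Plk2 by -0.3, a difference of 0.72 (exact permutation p = 0.0014, adjusted over the 8 pairs 0.0112). Zfp36 shifted by -0.73 and Zfp36l1 by -0.36 (exact permutation p = 0.00559, adjusted 0.0149). Ier2 shifted by -0.49 and Ier3 by -0.27 (exact permutation p = 0.0028, adjusted 0.0112). Btg1 and Btg2 moved to opposite sides, -0.24 and 0.13 (exact permutation p = 0.00839, adjusted 0.0168). The other 4 pairs did not pass: Zfp36 against Zfp36l2 differed by -0.33 (adjusted exact permutation p = 0.0828), Ier2 against Ier5 by -0.14 (0.166), Ier3 against Ier5 by 0.08 (0.225) and Zfp36l1 against Zfp36l2 by 0.04 (0.627). With the second brightest tested probe set of each gene that has more than 1, the differences of several pairs changed. Ier5 then shifted by -0.54, against -0.35 with its brightest probe set. The difference of Ier3 from Ier5 passed (0.27, adjusted exact permutation p = 0.00559), while that of Ier2 from Ier5 turned to 0.06 (0.368). Zfp36l2 shifted by 0.02, and the differences of Zfp36 (-0.76, adjusted exact permutation p = 0.00559) and Zfp36l1 (-0.38, 0.00895) from it then both passed. The brightest Zfp36l2 probe set had shifted by -0.4, and this disagreement was not resolved. Btg1 shifted by -0.06 and Btg2 by 0.17, and that difference no longer passed (-0.24, adjusted exact permutation p = 0.0511). Zfp36 against Zfp36l1 passed with either choice, and Plk2, Plk3, Ier2 and Ier3 have 1 probe set each. With the brightest probe sets the spread of each pair's difference over arrays was 0.051 to 0.22 up to 60 min and 0.096 to 0.255 from 80 min (SD, n = 4 and 9). In the passing PLK, ZFP36 and IER pairs the brighter probe set had the smaller shift. Percentiles of mean level were 98.3 for Plk2 and 81.4 for Plk3, 94.8 for Zfp36l1 and 84.7 for Zfp36, and 98.3 for Ier3 and 90.6 for Ier2. In the BTG pair the brighter, Btg1 (97.9 against 82.6), had the larger shift. The part of brightness in these differences was not tested.

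Among the genes themselves, courses were most alike between Plk2 and Plk3, between Ier2 and Plk2 and between Zfp36 and Plk3 (r = 0.96 each, brightest probe sets, 13 arrays), followed by Ier5 and Zfp36 (r = 0.94). Btg2 correlated with the other 9 at -0.45 to -0.14. These values, and those that follow, are descriptions over 13 arrays that share time and the step. For Ier2 the 3 nearest genes on the array were Slc3a2 (r = 0.982), Ccdc137 and Map7d1 (0.973 each). For Ier3 they were Pcdh1 (0.976), Map7 (0.959) and Zdhhc9 (0.958), and for Ier5 Rhob (0.961), Klk10 (0.959) and Ptgr1 (0.956). Zfp36 was nearest to Usp2 (0.993), Klk11 (0.988) and Cttnbp2nl (0.986), and Plk3 to Atp6v1b2 (0.992), Ctns (0.99) and Otud7b (0.986). Plk2 was nearest to a probe set of another member, Ier5 1417613_at (0.983), before Prickle1 (0.977) and Leprotl1 (0.976). Zfp36l1 was nearest to Csnk1e (0.954), Gtf2ird1 (0.949) and Cyb5d1 (0.945), and Zfp36l2 to Myadm (0.968), Fosl1 (0.955) and the keratin Krt17 (0.952). Btg1 was nearest to Cln8 (0.945), Cyb5d1 (0.933) and Fzd7 (0.926). The nearest genes of Btg2 reached lower values: Bcl2l11, a promoter of apoptosis, at 0.869, Hgsnat at 0.865 and Chpf at 0.849.

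Of 10 listed relatives of these genes 6 were tested. On the line 1 rose, where 20.3% of all probe sets were called higher, and limma called 0 lower, where 16.2% of all were. The riser was Plk1, the mitotic polo-like kinase (0.45 over 4 h, limma adjusted p = 0.0152). Tob2, an antiproliferative relative of the BTG genes, changed by -0.31 (adjusted p = 0.0959), Ier5l by 0.23 (0.051) and Ier3ip1 by 0.22 (0.116). In the second hour against the first, 1 of the 6, Ier3ip1, was higher (0.31, limma adjusted p = 0.00457) and 0 were lower. Of all probe sets 11.8% were called higher there and 12.9% lower. The median difference of the 6 was 0.04.

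The 10 tested genes of deadenylation are genes of CCR4-NOT, which BTG and ZFP36 proteins recruit, together with Pan2 and Parn, which lie outside that complex. On the line 3 of the 10 rose and 3 fell, and 1 fell and 0 rose between the first and the second hour. With 20.3% and 16.2% of all probe sets called on the line and 12.9% called lower in the second hour, these counts are near the background. The risers were Cnot9, Pan2 and Parn, and those that fell were Cnot2, Cnot4 and Cnot6l, all of CCR4-NOT. Cnot6l, a catalytic subunit, fell (-0.58 over 4 h, limma adjusted p = 0.00404), as did Cnot4 (-0.32, adjusted p = 0.0145), and Parn, the poly(A)-specific ribonuclease, rose (0.29, adjusted p = 0.00685). Cnot7, the catalytic partner that BTG proteins bind, changed by -0.30 (adjusted p = 0.0858). Of 8 tested factors that bind AU-rich elements or act in decay, 1 rose on the line and 0 fell: Mapk14, the p38 kinase upstream of ZFP36 phosphorylation (0.29, limma adjusted p = 0.00605). On the line Dcp1a changed by -0.15 (adjusted p = 0.231), Tial1 by -0.13 (0.0785) and Hnrnpd by 0.11 (0.288). In the second hour against the first 2 of the 8 were lower, the decapping factor Dcp1a (-0.27, limma adjusted p = 0.00573) and the AU-rich element binding protein Elavl1 (-0.15, 0.0294), and 0 were higher. Of all probe sets 12.9% were called lower there and 11.8% higher.

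Messages reported elsewhere as targets of ZFP36 proteins were read next. Of 15 on the list 10 were bright enough to test. On the line 5 fell, where 16.2% of all probe sets were called lower, and 1 rose, where 20.3% were called higher. The riser was the cyclin Ccnd1 (0.36 over 4 h, limma adjusted p = 0.00111). Over 4 h the log2 change was -2.02 for Ptgs2, the inducible cyclooxygenase (limma adjusted p = 0.000142). It was -0.81 for Lif (adjusted p = 0.00382), -0.67 for Fos (0.0218) and -0.54 for Myc (0.000558). In the second hour against the first, 5 were lower and 2 higher, with a median of -0.23. Of all probe sets 12.9% were called lower there and 11.8% higher. The cytokine messages Tnf, Csf2, Il6, Il1b and Cxcl2 were below the filter. Fos, Myc and Ptgs2 are themselves immediate early genes and stand on that list too, so the lists are not separate evidence.

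Of 52 other immediate early genes listed, 41 were tested. On the line 30 fell, where 16.2% of all probe sets were called lower, and limma called 0 higher, where 20.3% of all were. In the second hour 24 of the 41 were lower than in the first, against 12.9% of all, and 1 was higher, against 11.8%. The median difference of the 41 between these hours was -0.28, beside -0.263 for the 16 probe sets described here. The log2 change over 4 h was -2.13 for Egr2, a zinc finger transcription factor (limma adjusted p = 0.00021), -2.07 for Dusp10 (0.000177), -2.02 for Ptgs2 (0.000142) and -1.78 for Dusp1, a MAP kinase phosphatase (2e-04). Egr1 (-0.01, limma adjusted p = 0.975), Egr3 (0.12, 0.357) and Nr4a1 (-0.02, 0.818) were among those not called on the line. Among 13 other known p53 targets tested, 3 rose and 2 fell on the line, counts near the background of 20.3% and 16.2%: Gadd45a fell (-1.09, limma adjusted p = 0.00018), Pmaip1 fell (-0.57, 0.000838), Sesn1 rose (0.36, 0.000299), and Ccng1 gave 0.46 (0.133). Gadd45a stands on the immediate early list as well.

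**Figure D5:**
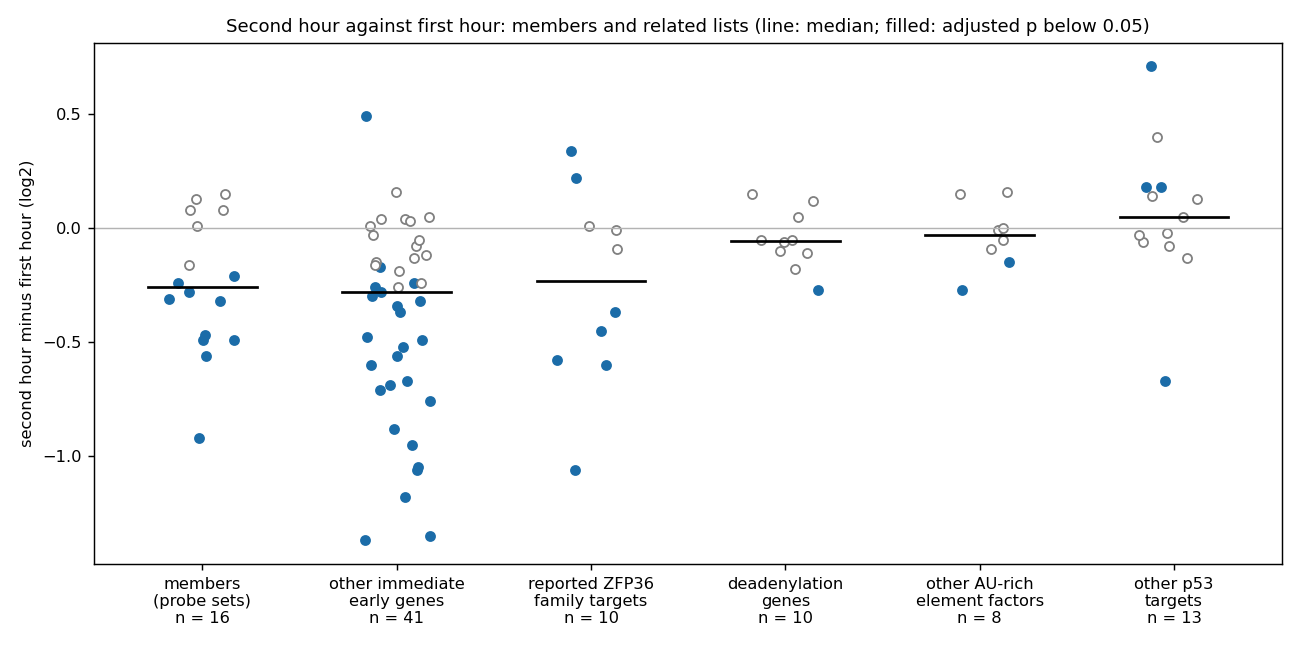
Difference of the second hour minus the first (log2, vertical axis) for the members' 16 probe sets and for the tested genes of 5 related lists. Each point is a probe set or gene, filled where its adjusted p was below 0.05, and each line is a median. The members' median is -0.263, that of the other immediate early genes -0.28, and that of the other p53 targets 0.05.

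The labelled cell type was checked against its markers. Krt14 lay at percentile 100 of mean level on the array and Trp63 at 86.8, Krt15 at 27.1. The virus in these cells expresses a p63 isoform, so the Trp63 reading may include it and does not check the cell type. Markers of fibroblasts lay at percentiles 7.1 to 51.3, of endothelial cells at 10.4 to 21.3 and of immune cells at 2 to 68.2. The 2 tested immune markers were Csf1r, at 68.2, with a change of 0.05 over 4 h (limma adjusted p = 0.794), and Cd68, at 62.6, which fell (-0.55, limma adjusted p = 0.00117). Those of melanocytes lay at 63.1 to 93.9, and 4 of the 5 read were lower in the second hour than in the first: Pmel by 0.26 (limma adjusted p = 0.0103), Mitf by 0.22 (0.0342), Tyr by 0.18 (0.0432) and Dct by 0.16 (0.0388). Of all tested probe sets 12.9% were called lower there. On the line Mitf alone of the 5 fell (-0.35 over 4 h, limma adjusted p = 0.00804), and Pmel (-0.04), Tyr (-0.03), Dct (-0.02) and Tyrp1 (0.00) did not pass. Their summed intensity was 6053 to 6956 up to 60 min and 5704 to 6363 from 80 min, and none was at 0. Among the 7 tested keratinocyte markers 4 were higher in the second hour, Trp63 among them, where 11.8% of all tested probe sets were called higher, and 0 were lower. The 8 keratinocyte markers read had summed intensities of 48395 to 50932 up to 60 min and 49562 to 52197 from 80 min. The 3' to 5' ratio of Gapdh probe sets, a sign of RNA integrity, was 0.90 to 0.94. That of Actb was 1.16 to 1.21 up to 60 min, 1.26 and 1.27 at 80 and 100 min, the highest of the 13 arrays, and 1.17 to 1.22 from 120 min. The part of the markers and of this ratio in the fall of the members was not tested.

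Within either side of the step no trend of a member passed. Fitted with the 60 to 80 min step as a block, or on the 9 arrays from 80 min alone, 0 of the 16 lines passed the limma threshold, where 1 and 3 of all probe sets did. The slopes left per hour for the members with the greatest falls were -0.152 for Zfp36 with the step as a block and -0.157 from 80 min alone (limma adjusted p = 0.129 and 0.181), and -0.094 and -0.083 for Plk3. For Ier2 they were -0.009 and 0.0, and for Plk2 -0.012 and -0.012. Btg2 1448272_at went the other way: its slope was 0.089 with the step as a block and 0.105 from 80 min alone, no smaller than the 0.083 of all 13 arrays, and neither passed (limma adjusted p = 0.187 and 0.24). With the first 4 arrays alone 0 of the 16 passed as well, where 9 of all did. A line on 4 arrays has little precision, so this does not show that the members were flat there. Slopes per hour were -0.234 for Plk3, -0.223 for Ier5 1417612_at and -0.151 for Ier3 (limma adjusted p = 0.712, 0.567 and 0.612). They were -0.112 for Ier2, -0.093 for Zfp36, -0.018 for Plk2 and -0.01 for Zfp36l1 1450644_at.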

How the data were processed

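Biotinylated cRNA from Trizol-extracted total RNA was hybridised to Affymetrix expression arrays, per the labels' protocols. The authors deposited 1 linear intensity per probe set and array. They had been summarised and scaled (software: not given in the sources used here). Scaling to a common level removes any change shared by most transcripts. They were not normalized again, and 16 was added before taking log2. The platform table gave 1 gene to 20393 probe sets, several to 691 and none to 1606. Symbols of 20364 were updated through RefSeq (GRCm38.p6), used for names and promoters only. Single-gene probe sets at or above the 40th percentile of mean level (log2 7.67) were tested, 12236 of 7924 genes.

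Tests were two-sided moderated tests of limma (version 3.58.1; R 4.3.3; eBayes, trend on intensity) with Benjamini-Hochberg adjustment over all 12236 probe sets: a line in time, a natural spline with 3 degrees of freedom, and a fit of 5 windows (8 residual degrees of freedom), whose median residual SD was 0.0787 on the log2 scale. The number of arrays limits the precision. Every probe set of the 10 members was named. Of each related list up to 4 genes with the largest slope were named, by their brightest probe set, and of each member the 3 genes of highest correlation. Other genes named were chosen after their values were seen. Members and lists were chosen with earlier results of these data known, so they carry no independent support. On simulated data with a log2 change of 0.5 the line recovered 87% of changed probe sets, with 7.9% of calls false, and the second hour against the first 86%, with 3.6% false. The simulated noise was normal and independent between arrays and probe sets, and the added changes had the shape that each test fits. A step shared by many probe sets was not simulated, so these rates need not hold for the data. Alternatives were other filters, pseudocounts, normalizations, moderation, array weights, windows, 1 probe set per gene, and each array left out in turn. The family comparison and its alternatives were added after seeing the data.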

Additional observations from a re-analysis of the deposited data

How the results depend on the processing

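Across 24 to 27 alternatives, the second hour against the first called 8 to 10 member probe sets (10 in the reported fit), the line 9 to 13 and the spline 9 to 12 (12 each), apart from these fits: the line called 0 with 0 to 60 min alone, 0 with 80 to 240 min alone and 0 with the step as a block, the spline called 0 with the step as a block, and the fourth hour against the third called 2 with array weights (0 reported). The first and the third hour's contrasts called 0 throughout. For the family pairs 18 alternatives were run (pseudocount, quantile normalization, arrays left out, another probe set), and 4 to 6 of the 8 pairs passed. Leaving out single arrays, the line called 10 to 13 and the spline 11 to 12.

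Directions reversed in these cases. Btg1 1437455_a_at between the first and the second hour was -0.004 after median centring, -0.135 with hours of 4 arrays, and -0.074 to 0.099 with single arrays left out. Zfp36l2 1451034_at ranged from -0.004 to 0.130 there and from -0.014 to 0.009 on the line (-0.016 without 200 and 220 min), Zfp36l2 1439054_at from -0.012 to 0.147, and the pair Zfp36l1 and Zfp36l2 from -0.001 to 0.092. With the second brightest probe sets that pair gave -0.383 and Ier2 against Ier5 0.058. On the line at 0 to 60 min alone, Btg2 gave -0.243 and -0.101 and Zfp36l2 -0.279 (1439054_at) and 0.000 (1437626_at), which also gave 0.050 with the step as a block and 0.055 from 80 min. The causes were not tested. Over all probe sets the reported 4463 calls on the line were 2968 with 1 probe set per gene and 9 at 0 to 60 min, the spline's 2621 were 5068 with array weights and 1730 without 20 min, and the second hour's 3023 were 1037 with hours of 4 arrays and 1996 without 100 min.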
